A study of Mus musculus with 16 samples.

Results

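The genes described here are Cacna2d1, Cacna2d2, Cacna2d3 and Cacna2d4, the complete mouse family that encodes the alpha2delta subunits of voltage-gated calcium channels. They are 4 of the 24454 genes counted, and all 4 were among the 15487 genes with enough counts to be tested. The family was selected on these data, because Cacna2d4 was much higher in the muscle of the transgenic mice, so every value that compares the genotypes is given for the family as a description without a test. The RNA came from the gastrocnemius, a calf muscle, of 16 mice that were 3 months old. HSALR mice, a model of myotonic dystrophy type 1, are homozygous for a human skeletal actin transgene with a long CTG repeat, which the line LR20b expresses in skeletal muscle only. Controls were mice of the background strain FVB/N without the transgene. Mice of each genotype received vehicle or AICAR, an activator of AMP-activated protein kinase, at 500 mg/kg for 7 days, with 5 HSALR mice and 3 control mice in each treatment group. All HSALR mice come from 1 transgenic line. Reads of the human transgene were not analysed here, and genotypes were taken from the labels.

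Alpha2delta proteins are made as a single chain that is cut into an extracellular alpha2 part and a delta part held at the membrane. They are auxiliary subunits: they bind the pore of high-voltage-activated calcium channels and increase its delivery to the cell surface. In skeletal muscle the pore Cav1.1, encoded by Cacna1s, is the voltage sensor of excitation-contraction coupling in the transverse tubules, and alpha2delta-1 is its usual partner. Alpha2delta-2 and alpha2delta-3 are known mainly from neurons, and alpha2delta-4 from photoreceptors of the retina, where its loss impairs vision. The analgesic gabapentin binds alpha2delta-1 and alpha2delta-2.

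The 4 coding sequences show how the genes fall into 2 pairs. In translations of the GENCODE M21 coding sequences, which hold between 1091 and 1157 codons, aligned residues were identical at 55.9% between Cacna2d1 and Cacna2d2 and at 58.3% between Cacna2d3 and Cacna2d4. The other pairs were identical at 30.4% to 33.0%. The stretches below are 99 coding bases of each gene, written 5′ to 3′ on the coding strand and joined across introns. They are shown because they hold the metal-binding motif of the von Willebrand factor A domain, through which alpha2delta subunits contact the pore. The capitals in the last part of each line mark its 5 codons, searched for as aspartate, any residue, serine, any residue, serine. The earlier capitals in Cacna2d1 and Cacna2d2 mark 3 arginine codons in a row, which belong to the gabapentin site.
Cacna2d1: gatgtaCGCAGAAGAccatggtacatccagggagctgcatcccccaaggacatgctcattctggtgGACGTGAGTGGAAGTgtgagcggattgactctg
Cacna2d2: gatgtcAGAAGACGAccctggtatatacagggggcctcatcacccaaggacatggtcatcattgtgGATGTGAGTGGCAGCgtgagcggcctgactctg
Cacna2d3: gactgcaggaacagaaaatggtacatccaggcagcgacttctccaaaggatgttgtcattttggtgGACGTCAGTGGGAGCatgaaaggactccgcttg
Cacna2d4: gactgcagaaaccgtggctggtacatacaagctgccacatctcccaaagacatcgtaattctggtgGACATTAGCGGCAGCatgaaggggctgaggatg
On mm10 these motifs lie at chr5:16266733-16267385 in Cacna2d1, across an intron, at chr9:107513100-107513242 in Cacna2d2, likewise across an intron, at chr14:29346971-29346985 in Cacna2d3, on the reverse strand, and at chr6:119268242-119268256 in Cacna2d4. All 4 genes held the motif, and Cacna2d3 held a second match elsewhere, so that 2 were found in it. The run of arginine codons stood 20 residues before the motif in Cacna2d1 and Cacna2d2. It was not found at this place in Cacna2d3 or Cacna2d4. The gene that was higher in HSALR muscle thus belongs to the pair without the arginine run, and the abundant muscle gene to the pair with it.

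Between 64890014 and 81987726 reads were counted on genes per library. The unit is normalized CPM, meaning reads of a gene relative to the library total after TMM scaling, and, where genes are compared with each other, RPKM, which also divides by the gene length in the deposited table. Skeletal muscle fibre markers (6 of 6 detected) summed to between 116000 and 178000 CPM in all 16 libraries. Retinal photoreceptor markers summed to between 0.0573 and 0.356 CPM, with Crx at 0 in every library. Epidermal keratins and their companions stood apart between mice: their 8 genes summed to between 0.612 and 187 CPM in vehicle-treated HSALR mice, between 0.242 and 0.371 CPM in AICAR-treated HSALR mice, and up to 92.3 and 104 CPM in control mice after vehicle and AICAR.

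Cacna2d1, the muscle subunit, made up nearly all alpha2delta transcript in every mouse. Its level after vehicle was 686, 616 and 641 normalized CPM in the 3 control mice, and 557, 544, 573, 354 and 520 CPM in the 5 HSALR mice. After AICAR it was 590, 553 and 714 CPM in controls and 539, 494, 538, 506 and 564 CPM in HSALR mice. Every vehicle-treated HSALR mouse lay below every vehicle-treated control, and the HSALR mouse at 354 CPM stood apart from its group, whereas the groups overlapped after AICAR. The means were 648 ± 35.6 CPM (SD, n = 3) and 509 ± 88.8 CPM (SD, n = 5) after vehicle, and 619 ± 84.1 CPM (SD, n = 3) and 528 ± 28.1 CPM (SD, n = 5) after AICAR, in controls and HSALR mice respectively. The log2 fold change of Cacna2d1 in HSALR as compared to control was -0.35 (SE 0.13) after vehicle and -0.23 (SE 0.13) after AICAR. Leaving out any 1 mouse gave -0.39 to -0.24 after vehicle and -0.30 to -0.11 after AICAR, the last without control S449. With libraries scaled to Tbp, the reference gene of the study's PCR, the difference after vehicle was -0.07 on the log2 scale, so that its size depends on the scaling. That scaling moved the median of all genes to 0.28 in this comparison.

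Cacna2d4, the photoreceptor subunit, was low in control muscle and several times higher in HSALR muscle. Control mice had 1.17, 1.28 and 1.28 normalized CPM after vehicle, from 82 to 100 reads per library, and 1.05, 0.471 and 0.702 CPM after AICAR. HSALR mice had 9.32, 12.9, 10.3, 8.39 and 10.9 CPM after vehicle and 15.5, 12.2, 8.89, 10.8 and 13.5 CPM after AICAR. The lowest HSALR mouse of all 10 lay far above the highest control of all 6, and the genotypes did not overlap under either treatment. Group means were 1.24 ± 0.0633 CPM (SD, n = 3) in control and 10.4 ± 1.72 CPM (SD, n = 5) in HSALR muscle after vehicle. After AICAR they were 0.742 ± 0.293 CPM (SD, n = 3) and 12.2 ± 2.53 CPM (SD, n = 5). The fitted log2 fold change was 3.06 (SE 0.21), an 8.36-fold difference, after vehicle and 4.04 (SE 0.23), a 16.5-fold difference, after AICAR. These are the values that chose the family. Leaving out any 1 mouse gave log2 fold changes between 2.96 and 3.13 after vehicle and between 3.79 and 4.38 after AICAR.

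**Figure D1:**
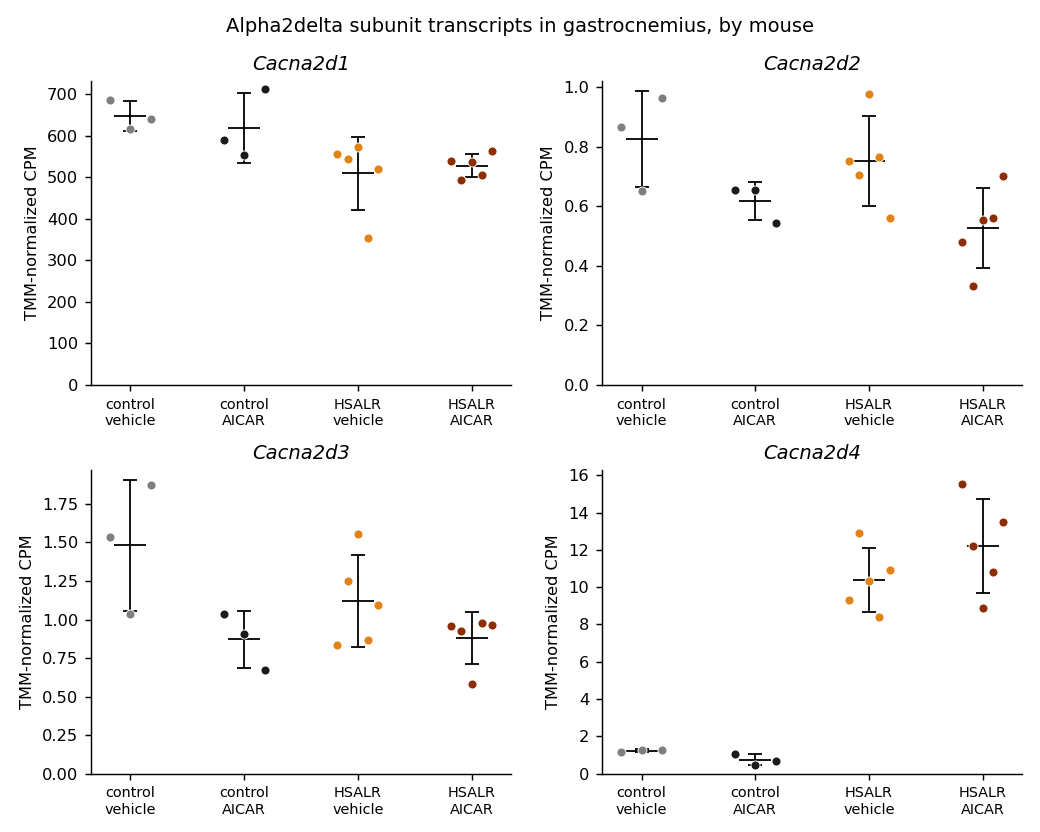
Each panel plots the normalized CPM of 1 alpha2delta gene in each mouse (points) for the 4 groups on the horizontal axis, with the group mean and SD as bars. Cacna2d4 sits between 8.39 and 15.5 CPM in HSALR mice and at or below 1.28 CPM in controls, while Cacna2d2 and Cacna2d3 overlap between genotypes.

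Cacna2d2 and Cacna2d3, the neuronal subunits, were near the lower end of what could be measured. Cacna2d2 had 0.868, 0.65 and 0.965 CPM in vehicle-treated controls and 0.752, 0.707, 0.979, 0.768 and 0.56 CPM in vehicle-treated HSALR mice. After AICAR it had 0.654, 0.654 and 0.544 CPM in controls and 0.48, 0.334, 0.555, 0.56 and 0.704 CPM in HSALR mice. The genotypes overlapped under both treatments, with log2 fold changes of -0.14 (SE 0.23) after vehicle and -0.23 (SE 0.24) after AICAR, and of -0.28 to -0.01 and -0.36 to -0.11 when 1 mouse was left out. Cacna2d3 had 1.54, 1.03 and 1.88 CPM in vehicle-treated controls and 0.835, 1.25, 1.56, 0.865 and 1.09 CPM in vehicle-treated HSALR mice. After AICAR its levels were 1.04, 0.903 and 0.673 CPM in controls and 0.96, 0.928, 0.583, 0.976 and 0.964 CPM in HSALR mice. Its log2 fold changes between genotypes were -0.40 (SE 0.25) and 0.02 (SE 0.25), again with overlapping groups, and ran from -0.61 to -0.20 and from -0.14 to 0.16 when 1 mouse was left out. For Cacna2d2 the mean count per group was between 38 and 61 reads, so that counting alone gives a coefficient of variation of 12.8% to 16.2%, beside 10.3% to 25.6% observed between mice.

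The order of the genes by length-scaled level differed between the genotypes. In vehicle-treated controls the mean levels were 86.4 RPKM for Cacna2d1, 0.401 RPKM for Cacna2d3, 0.214 RPKM for Cacna2d4 and 0.149 RPKM for Cacna2d2, and neighbours in this order did not overlap across the 3 mice. In vehicle-treated HSALR mice Cacna2d4 came second at 1.79 RPKM, above Cacna2d3 at 0.303 RPKM and Cacna2d2 at 0.136 RPKM, again without overlap. The order after AICAR was the same as after vehicle within each genotype, except that Cacna2d4 at 0.128 RPKM and Cacna2d2 at 0.111 RPKM overlapped in controls. Cacna2d1 remained 38.0 times the mean level of Cacna2d4 in vehicle-treated HSALR muscle and 33.5 times in AICAR-treated HSALR muscle.

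Expressed as a share of the summed family RPKM, Cacna2d4 accounted for 0.246% ± 0.0250 (SD, n = 3) in vehicle-treated controls and 2.58% ± 0.390 (SD, n = 5) in vehicle-treated HSALR mice. After AICAR its share was 0.155% ± 0.0645 (SD, n = 3) in controls and 2.88% ± 0.550 (SD, n = 5) in HSALR mice. Cacna2d1 held 99.1% and 96.8% of the sum in the same genotypes after vehicle, and 99.4% and 96.7% after AICAR. The summed level of the family was 87.2 ± 4.81 RPKM (SD, n = 3) in controls and 70.2 ± 12.1 RPKM (SD, n = 5) in HSALR mice after vehicle. With TMM scaling the higher Cacna2d4 thus did not offset the lower Cacna2d1. The sum was 49.1 RPKM in vehicle-treated HSALR mouse S458 and 71.6 to 78.8 RPKM in the others of its group. With Tbp scaling Cacna2d1 differed by -0.07 on the log2 scale, and the sum was not computed.

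**Figure D2:**
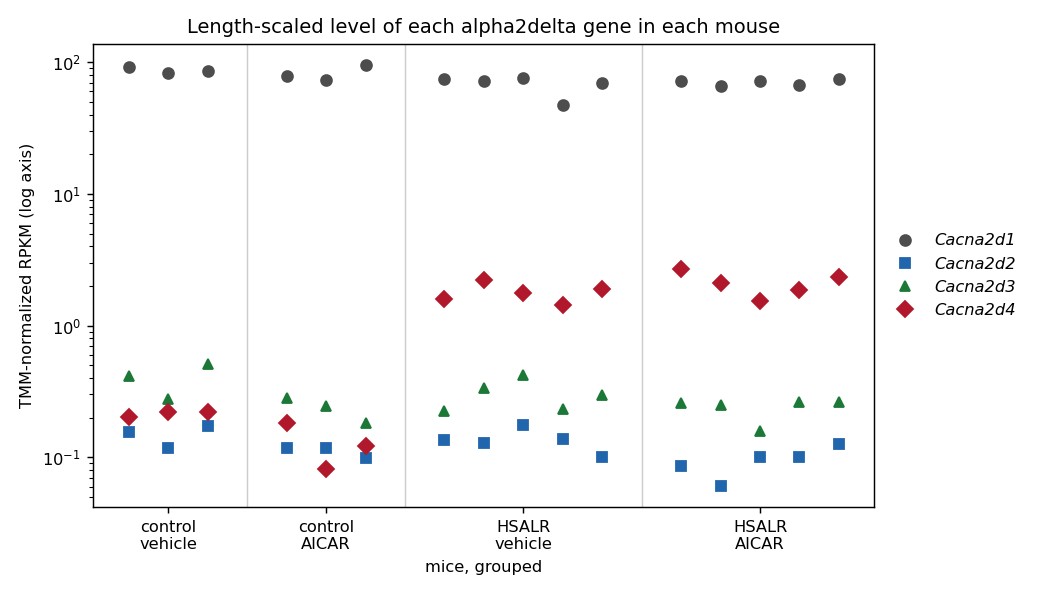
The level of each alpha2delta gene in each mouse is plotted in normalized RPKM on a log axis, with mice grouped along the horizontal axis and 1 symbol per gene. Cacna2d1 lies between 47.3 and 95.3 RPKM throughout, and Cacna2d4 lies above Cacna2d3 in all 10 HSALR mice and below it in all 6 controls.

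The level of Cacna2d1 was also set against that of its pore, Cacna1s. The ratio of Cacna2d1 to Cacna1s RPKM was 0.427, 0.384 and 0.438 in vehicle-treated controls and 0.328, 0.315 and 0.301 in AICAR-treated controls. In HSALR mice it was 0.333, 0.293, 0.340, 0.249 and 0.283 after vehicle and 0.252, 0.255, 0.249, 0.228 and 0.276 after AICAR. Vehicle-treated controls had the highest ratios, with no overlap with any other group. The difference in this ratio was not tested.

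The effect of AICAR within each genotype was not the contrast that chose the family, and it was tested, although all 16 mice had also entered the genotype comparisons that did. Tested in edgeR (quasi-likelihood, with Benjamini-Hochberg adjusted p-values over all genes), 0 of the 4 genes passed an adjusted p of 0.05 in HSALR mice, against a background of 13.7% of all genes called higher and 13% called lower with AICAR. In control mice 0 of 4 passed as well, against 8.4% called higher and 4.77% called lower. At an unadjusted p under 0.05, 1 gene in HSALR mice (Cacna2d2) and 2 genes in controls (Cacna2d3 and Cacna2d4) passed. DESeq2 called 0 genes in HSALR mice and 1 in controls (Cacna2d4), and limma with voom called 0 in either.

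Cacna2d4 had a log2 fold change with AICAR of 0.23 in HSALR mice (95% interval -0.10 to 0.56, adjusted p = 0.339) and of -0.75 in control mice (95% interval -1.26 to -0.23, adjusted p = 0.0739). All 3 AICAR-treated controls lay below all 3 vehicle-treated controls, at 36 to 74 reads as compared to 82 to 100. A two-sided exact permutation test of the control values gave p = 0.1, the smallest that 3 mice against 3 allow, and of the HSALR values p = 0.246. DESeq2 gave an adjusted p of 0.031 for the controls, and without control mouse S447 of the AICAR group the edgeR adjusted p was 0.0191 at a log2 fold change of -1.08. The AICAR effect on Cacna2d4 in HSALR mice minus that in controls was 0.98 on the log2 scale. This is also the genotype difference of 4.04 after AICAR minus that of 3.06 after vehicle, the values that chose the family, so it is given as a description without a test.

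Cacna2d2 had a log2 fold change with AICAR of -0.52 in HSALR mice (95% interval -0.92 to -0.12), with an adjusted p of 0.0714 by edgeR and p = 0.0238 by the two-sided exact permutation test of 5 mice against 5. This did not pass the threshold over all genes. The adjusted p fell to 0.0457 without vehicle-treated HSALR mouse S459, 0.0376 without AICAR-treated HSALR mouse S463 and 0.0498 with library size as the only scaling. In controls its log2 fold change was -0.42 (adjusted p = 0.309 by edgeR). Cacna2d3 had log2 fold changes of -0.34 in HSALR mice (adjusted p = 0.274 by edgeR) and -0.76 in controls (adjusted p = 0.0846 by edgeR, and 0.0462 without vehicle-treated control S446). Cacna2d1 had 0.05 in HSALR mice (95% interval -0.16 to 0.26) and -0.07 in controls (95% interval -0.34 to 0.21), with edgeR adjusted p-values of 0.765 and 0.811. These intervals are those of the fit with TMM scaling, and Tbp scaling gave -0.064 in HSALR mice and 0.13 in controls. All 8 epidermal markers fell with AICAR in HSALR mice. With the log2 of their summed level as a covariate, the AICAR log2 fold changes in HSALR mice were -0.02 for Cacna2d1, -0.39 for Cacna2d2, 0.01 for Cacna2d3 and 0.17 for Cacna2d4. The edgeR adjusted p-values ran from 0.353 to 0.984. The epidermal sums did not overlap between vehicle- and AICAR-treated HSALR mice, so this covariate cannot be fully separated from treatment there.

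**Figure D3:**
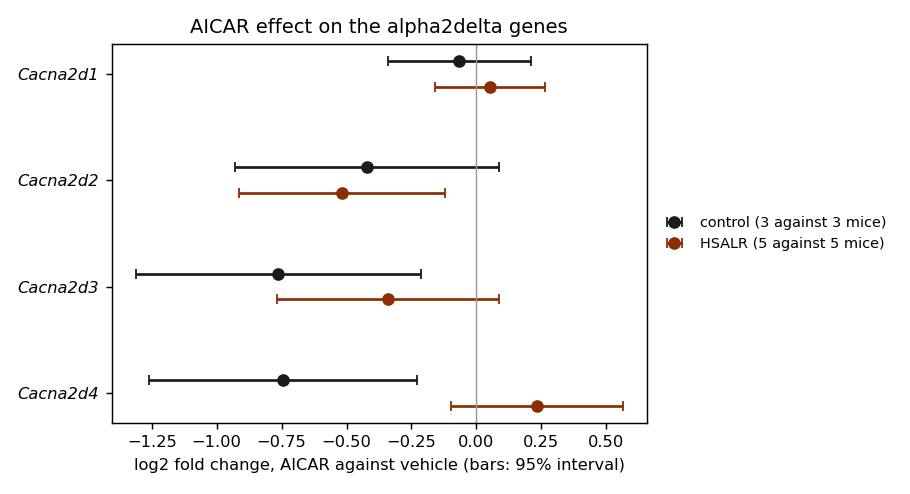
The log2 fold change of AICAR against vehicle is plotted for each alpha2delta gene, with 95% intervals of 1.96 standard errors, in control and in HSALR mice. The interval of Cacna2d4 lies below 0 in controls and spans 0 in HSALR mice, and after adjustment over all genes neither effect passed 0.05 with edgeR.

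The shares were compared between treatments by exact permutation. In controls the exact test could not pass 0.05, because 3 mice against 3 cannot go below p = 0.1. The share of Cacna2d1 in controls reached that limit, at 0.292 percentage points higher with AICAR and without overlap between the groups (two-sided exact permutation p = 0.1, adjusted p = 0.267 over the 8 comparisons). In HSALR mice the share of Cacna2d4 in family RPKM was 0.299 percentage points higher with AICAR (exact permutation p = 0.333, adjusted p = 0.381), a difference that ran from 0.126 without AICAR-treated mouse S454 to 0.499 without AICAR-treated mouse S460, and in controls it was lower, by a difference of -0.0911 points (exact permutation p = 0.2, adjusted p = 0.32). The share of Cacna2d2 in HSALR mice was 0.199% after vehicle and 0.129% after AICAR (exact permutation p = 0.0238, adjusted p = 0.19). The adjusted p-values of the 4 comparisons in HSALR mice were between 0.19 and 0.722, so that 0 passed 0.05.

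Genes of other calcium channel subunits and partners were examined in lists of 37 genes, of which 28 were tested. In HSALR as compared to control mice after vehicle, 5 of 28 rose and 3 fell by edgeR at an adjusted p of 0.05, with a median log2 fold change of -0.03, against 15.4% of all genes called higher and 11.5% called lower. The number called fell from 8 to 4 without vehicle-treated control S446. After AICAR 6 of 28 were higher and 0 lower, against 12.2% and 9.64% of all genes, and 3 were called without AICAR-treated control S447, without S448 or with Tbp scaling. With AICAR, 5 of 28 rose and 6 fell in HSALR mice, against 13.7% and 13% of all genes, and with the epidermal covariate 7 were called in all. Of the cell markers in that comparison, 2 of 4 endothelial markers rose beside the fall of the epidermal markers, with endothelial sums of 155 to 204 CPM after vehicle and 195 to 213 CPM after AICAR. In each of the Schwann cell and nerve, fibroblast, macrophage, satellite cell and muscle fibre lists 1 marker fell, and 0 smooth muscle or adipocyte markers were called. Their part in the AICAR results was not tested. In controls 3 of 28 rose and 1 fell, against 8.4% and 4.77% of all genes, and the number called was 2 in a fit of those groups alone and 8 with DESeq2. Of the cell markers 1 was called with AICAR in controls, a satellite cell marker that fell. The difference between the AICAR effects was called for 0 of 28 by edgeR, against 0.207% of all genes called higher and 0.484% called lower, at 5 of 28 with an unadjusted p under 0.05 and 0 by DESeq2 and limma with voom. The median over all genes tested was 0.01 in HSALR as compared to control mice after vehicle and -0.02 for AICAR in HSALR mice.

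Of the skeletal Cav1.1 complex, in which Cacnb1 encodes the beta subunit, Cacng1 the gamma subunit and Stac3 an adaptor needed for coupling, 2 of 4 genes rose in vehicle-treated HSALR mice. Cacng1 rose from 206 ± 6.00 CPM (SD, n = 3) to 400 ± 54.6 CPM (SD, n = 5), a log2 fold change of 0.96 (SE 0.12, edgeR adjusted p = 6.09e-05), without overlap between the groups. Cacnb1 rose by 0.30 (SE 0.10, edgeR adjusted p = 0.0297), with overlapping groups. Its adjusted p reached 0.134 in the alternatives, with 5 of the 8 fits that left out 1 mouse among those above 0.05. After AICAR Cacng1 was higher in HSALR mice by 0.47 (edgeR adjusted p = 0.0132, up to 0.076 without control S447 or S448 or with Tbp scaling). Cacna1s, the pore, had 0.12 after vehicle (edgeR adjusted p = 0.414) and Stac3 -0.03 (edgeR adjusted p = 0.78). With AICAR in HSALR mice, Cacna1s rose from 1410 to 1750 CPM, by 0.31 (SE 0.09, edgeR adjusted p = 0.016), and Stac3 fell by 0.15 (edgeR adjusted p = 0.0395). In controls Cacna1s had 0.34 (SE 0.11, edgeR adjusted p = 0.055), without overlap between the groups, and DESeq2 called it. In controls Stac3 fell by 0.31 (edgeR adjusted p = 0.00777), a call lost with Tbp scaling and in a fit of the compared groups alone. The Cacna1s call was lost with Tbp scaling and with the epidermal covariate (highest adjusted p = 0.302), and the Stac3 call in 11 of 20 alternatives.

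Among other pore subunits, Cacna1i, which encodes the T-type channel Cav3.3, gave the widest range. It had 0.37, 0.497 and 0.177 CPM in vehicle-treated controls and 0.811, 2.04 and 2.96 CPM in AICAR-treated controls. In HSALR mice it had 3.84, 4.78, 1.87, 1.75 and 2.45 CPM after vehicle and 27.6, 15.6, 22.7, 27.7 and 26.9 CPM after AICAR. Each of the 4 pairs of groups compared was free of overlap. Cacna1i rose in HSALR as compared to control mice by 3.06 (edgeR adjusted p = 0.000328) after vehicle and 3.63 (edgeR adjusted p = 4.24e-05) after AICAR on the log2 scale. With AICAR it rose by 3.03 in HSALR mice (edgeR adjusted p = 2.08e-05) and 2.47 in controls (edgeR adjusted p = 0.00664, and 0.0707 by limma with voom). The difference between these effects was 0.57 (SE 0.63, edgeR adjusted p = 0.722). Cacna2d4 and Cacna1i thus had nearly the same fitted genotype difference after vehicle, whereas with AICAR Cacna1i rose in both genotypes and Cacna2d4 was called in neither by edgeR. Cacna1c, the Cav1.2 pore of heart and smooth muscle, fell by 0.61 (edgeR adjusted p = 0.0121) and Cacna1h, the T-type Cav3.2, by 0.66 (edgeR adjusted p = 0.0317) in vehicle-treated HSALR mice. The Cacna1c call was lost with Tbp scaling (adjusted p = 0.188) and without vehicle-treated control S446 (adjusted p = 0.0879), and that of Cacna1h in 6 of 18 alternatives, among them the fit without that control. In the same comparison 2 of 3 smooth muscle markers and 4 of 4 endothelial markers fell, with summed endothelial levels of 234 to 261 CPM in controls and 155 to 204 CPM in HSALR mice, and their part in these results was not tested. Cacna1a, the Cav2.1 pore, was called higher in HSALR mice after AICAR by 0.52 (edgeR adjusted p = 0.0478), a call lost in 13 of 18 alternatives. Its change with AICAR was -0.57 in controls (edgeR adjusted p = 0.065), without overlap between the groups and called by DESeq2, and -0.15 in HSALR mice (edgeR adjusted p = 0.511), and the difference between these effects was 0.42 (edgeR adjusted p = 0.435). Cacna1g, the T-type Cav3.1, was at 5.64 CPM after vehicle and 2.58 CPM after AICAR in HSALR mice and fell by 1.13 on the log2 scale (edgeR adjusted p = 0.000867), beside -0.47 in controls (edgeR adjusted p = 0.245), where the groups did not overlap either. Cacna1f, the Cav1.4 pore that alpha2delta-4 accompanies in photoreceptors, had between 0 and 4 reads in every library and was too low to be tested.

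Of the other beta subunits, edgeR called 1 of 3, Cacnb4. It rose in HSALR as compared to control mice by 1.09 after vehicle (edgeR adjusted p = 0.00237) and by 1.08 after AICAR (edgeR adjusted p = 0.00255), and with AICAR by 1.28 in HSALR (edgeR adjusted p = 0.000162) and 1.29 in control mice (edgeR adjusted p = 0.00355). Its group means ran from 0.896 CPM in vehicle-treated controls to 4.65 CPM in AICAR-treated HSALR mice. Cacnb3 had -0.41 with AICAR in HSALR mice (edgeR adjusted p = 0.0543) and was called by DESeq2, with overlapping groups. Of 8 other gamma subunits and relatives, 3 were tested. Tmem37, a gamma-like protein, rose with AICAR from 23.6 to 43.5 CPM in HSALR mice (log2 fold change 0.89, edgeR adjusted p = 7.41e-06) and from 23.9 to 33.5 CPM in controls (0.49, edgeR adjusted p = 0.0113, and 0.0798 in a fit of those groups alone). Its level after AICAR was higher in HSALR than in control mice by 0.38 (edgeR adjusted p = 0.016), a call lost with Tbp scaling and without AICAR-treated control S448 (highest adjusted p over the alternatives 0.0992). Cacng6, the relative of the skeletal gamma subunit, fell with AICAR in HSALR mice by 0.26 (edgeR adjusted p = 0.026, lost in 6 of 20 alternatives), beside -0.11 in controls (edgeR adjusted p = 0.51). Of 2 other STAC adaptors, Stac2 rose with AICAR in HSALR mice by 0.70 (edgeR adjusted p = 0.0373, lost in 8 of 20 alternatives). In controls its change was 0.91 (edgeR adjusted p = 0.0586), without overlap between the groups, and DESeq2 called it. The difference between these effects on Stac2 was -0.20 (edgeR adjusted p = 0.845).

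Of the RGK proteins, small GTP-binding inhibitors that bind the beta subunits, Rrad was 33.5 to 73.4 CPM in vehicle-treated HSALR mice and 4.71 to 7.19 CPM in vehicle-treated controls. It rose in HSALR mice by 3.31 on the log2 scale (SE 0.41, edgeR adjusted p = 0.00011). After AICAR the HSALR mice had 7.60, 8.32, 26.1, 6.55 and 6.62 CPM and the controls 3.51, 5.01 and 3.35 CPM. Rrad thus fell with AICAR in HSALR mice by 2.32 (SE 0.34, edgeR adjusted p = 0.000321), and the remaining difference from control was 1.48 (edgeR adjusted p = 0.0259, above 0.05 without AICAR-treated control S447 or S449, with voom and in a fit of those groups alone). The difference between the AICAR effects on Rrad in HSALR and control mice was -1.83 (edgeR adjusted p = 0.167), and the adjusted p was 0.00281 without HSALR mouse S460, which had the value of 26.1 CPM. Rem1 fell with AICAR in HSALR mice by 0.70 (edgeR adjusted p = 0.0171), beside -0.21 in controls (edgeR adjusted p = 0.64). Gem was called by edgeR in neither genotype comparison nor with AICAR.

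Of 7 partners and relatives of alpha2delta, which include thrombospondins, the endocytic receptor Lrp1 and the related protein Cachd1, 1 fell in vehicle-treated HSALR mice. Lrp1 went from 179 to 136 CPM, a log2 fold change of -0.40 (edgeR adjusted p = 0.0131), lost with Tbp scaling (adjusted p = 0.515) and without vehicle-treated control S446. With AICAR Lrp1 had a change of the opposite sign in HSALR mice, at 0.26 (edgeR adjusted p = 0.0512), which DESeq2 and limma with voom called, and -0.07 in controls (edgeR adjusted p = 0.746). Thbs3 fell with AICAR in HSALR mice by 0.68 (edgeR adjusted p = 0.000698). In controls its change was -0.46 (edgeR adjusted p = 0.0571), without overlap between the groups and called by DESeq2, and the difference between these effects was -0.22 (edgeR adjusted p = 0.623). Thbs4 at 222 to 250 CPM and Thbs1, Thbs2, Comp and Cachd1 were not called in any of these comparisons by edgeR.

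**Figure D4:**
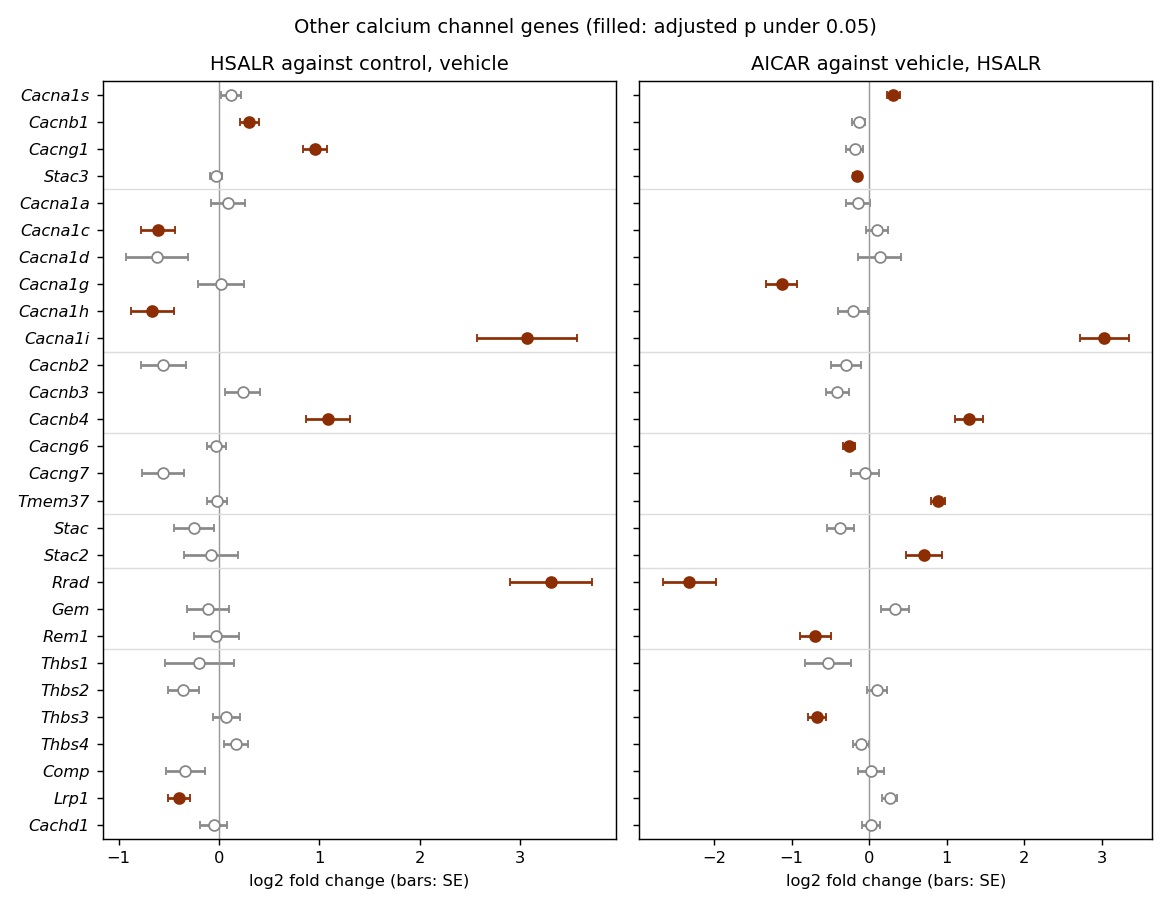
Log2 fold changes with standard errors are plotted for the 28 tested genes of the calcium channel lists, in HSALR against control mice after vehicle (left) and for AICAR against vehicle in HSALR mice (right). Filled points passed an adjusted p of 0.05: Cacna1i and Cacnb4 are filled on the right side of 0 in both panels, and Rrad is at 3.31 on the left and -2.32 on the right.

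The surroundings of the genes were examined because reads were counted where they started within an exon, and the strand setting of that counting is not given in the sources used here. Cacna2d4 lies at chr6:119236524-119352407 on mm10. Inside it, on the opposite strand, lies Lrtm2 (chr6:119315133-119332270), which encodes a protein with leucine-rich repeats and a transmembrane segment. In the GENCODE M21 annotation the exons of Cacna2d4 share 0 bases with those of Lrtm2; the RefSeq exons of the counting were not compared. Lrtm2 had 0.114, 0.37 and 0.0951 CPM in vehicle-treated controls, from 7 to 29 reads, and 12.4, 8.47, 5.94, 5.94 and 5.80 CPM in vehicle-treated HSALR mice. After AICAR it had 0.313, 0.131 and 0.0430 CPM in controls and 3.92, 2.20, 3.07, 3.85 and 2.88 CPM in HSALR mice. Like Cacna2d4, Lrtm2 was higher in each HSALR mouse than in any control. Lrtm2 rose in HSALR as compared to control mice by 5.29 on the log2 scale (edgeR adjusted p = 3.16e-06) after vehicle and 4.28 (edgeR adjusted p = 3.98e-05) after AICAR. With AICAR it fell in HSALR mice by 1.28 (edgeR adjusted p = 0.00747), without overlap between the groups, whereas Cacna2d4 was not called there. In controls Lrtm2 had -0.27 (edgeR adjusted p = 0.83), and the difference between these effects was -1.0 (edgeR adjusted p = 0.541). Lrtm2 could not be fitted under the filter that required 10 counts in every library. The flanking genes were not called between genotypes: Dcp1b, a decapping factor whose end is 14910 bases away, had 0.03 (edgeR adjusted p = 0.802) and Adipor2, an adiponectin receptor 743 bases away, had -0.05 (edgeR adjusted p = 0.551) after vehicle. With AICAR in HSALR mice they rose by 0.23 (edgeR adjusted p = 0.0231) and 0.20 (edgeR adjusted p = 0.00993), calls lost with library size alone, with Tbp scaling and with the epidermal covariate. The Dcp1b call was also lost without vehicle-treated HSALR mouse S453 (edgeR adjusted p = 0.0573). In controls Dcp1b had 0.24 (edgeR adjusted p = 0.0783) and Adipor2 0.21 (edgeR adjusted p = 0.0518).

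Cacna2d3, at chr14:28904943-29722775, has a similar arrangement. Lrtm1, the relative of Lrtm2, lies inside it on the opposite strand at chr14:29018208-29033642 and shares 0 exon bases with it. Lrtm1 was the far more abundant of the nested genes, with 121, 80.0 and 141 CPM in vehicle-treated controls and 38.5, 51.4, 58.8, 41.5 and 50.8 CPM in vehicle-treated HSALR mice. It fell in HSALR as compared to control mice by 1.24 on the log2 scale (edgeR adjusted p = 5.3e-05) after vehicle and by 0.80 (edgeR adjusted p = 0.00297) after AICAR, without overlap in either. Lrtm1 and Lrtm2 thus went in opposite directions in HSALR muscle, and Cacna2d3, unlike Cacna2d4, overlapped between the genotypes. Cacna2d2 (chr9:107399733-107529346) shares 82 of its 7947 exon bases with Gm17141 on the opposite strand, and Cacna2d1 (chr5:15934264-16374511) shares 0 with any annotated gene. Tmem115, the nearest protein-coding gene above Cacna2d2, had 0.09 (edgeR adjusted p = 0.23) after vehicle.

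**Figure D5:**
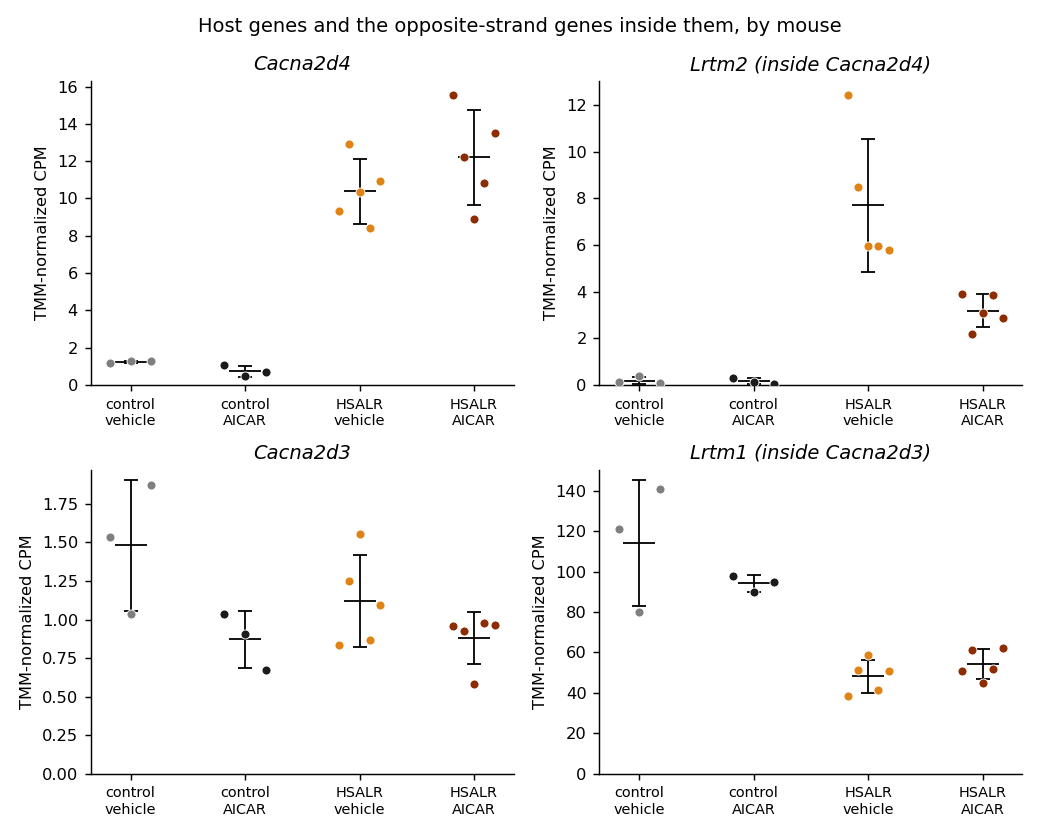
Normalized CPM in each mouse (points, with group mean and SD) is plotted for Cacna2d4 and Cacna2d3 on the left and for the genes that lie inside them on the opposite strand, Lrtm2 and Lrtm1, on the right. Lrtm2 is between 5.80 and 12.4 CPM in vehicle-treated HSALR mice and between 2.20 and 3.92 CPM after AICAR, while Lrtm1 is lower in HSALR mice than in controls.

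The genes whose pattern was most like that of Cacna2d4 were found as those with the smallest root mean square difference from it over the 16 libraries, on log2(CPM + 0.1) values centred per gene, among 13000 genes with a mean of at least 50 counts. These were Ankrd55 at 0.474, Eif4e1b at 0.484, Shisal1 at 0.520, Catsperd at 0.578 and Igfn1 at 0.602, beside a root mean square size of 1.70 for the pattern of Cacna2d4 itself. They were chosen by their likeness and are described without a test. Eif4e1b encodes a relative of the cap-binding factor eIF4E known from oocytes, Catsperd a subunit of the sperm calcium channel CatSper, and Igfn1 an immunoglobulin-domain protein of skeletal muscle. Mean levels in vehicle-treated control and HSALR mice were 0.200 and 2.26 CPM for Ankrd55, 0.0535 and 1.05 CPM for Eif4e1b, 0.855 and 7.49 CPM for Shisal1, 0.0266 and 1.42 CPM for Catsperd, and 42.2 and 242 CPM for Igfn1. All 5 genes were higher in each HSALR mouse than in any control under both treatments.

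Other cell markers were set beside the genotype values of Cacna2d4. Macrophage markers were 2 of 3 higher in vehicle-treated HSALR mice, with sums of 38.4 to 53.1 CPM in controls and 54.6 to 69.2 CPM in HSALR mice, and of 2 satellite cell markers Pax7 rose, with sums of 1.43 to 2.73 CPM and 2.89 to 3.89 CPM. Of the 6 muscle fibre markers 1 was higher and 0 were lower in vehicle-treated HSALR mice. Schwann cell and nerve, fibroblast and adipocyte markers had 0 genes called between genotypes in either direction, after vehicle or after AICAR. After AICAR both satellite cell markers were higher in HSALR mice, with sums of 0.916 to 1.32 CPM in controls and 2.22 to 2.65 CPM in HSALR mice. In the same comparison 2 of 4 endothelial markers, 1 of 3 smooth muscle markers and 5 of 8 epidermal markers were lower, 0 of 3 macrophage markers were called, and of the 6 muscle fibre markers 1 was higher and 1 lower. Endothelial sums were then 241 to 262 CPM in controls and 195 to 213 CPM in HSALR mice. The part of these cells in the levels of Cacna2d4 was not tested. In whole muscle, fewer cells of a type and less RNA per cell cannot be told apart. With the log2 of the epidermal sum as a covariate, the genotype difference of Cacna2d4 was 3.09 after vehicle and 4.02 after AICAR on the log2 scale.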

How the data were processed

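Poly(A) RNA of gastrocnemius from 16 mice was sequenced as stranded single-end libraries. The submitters' processing notes name STAR 2.5.2a and mm10, and the authors counted reads that started in RefSeq exons with QuasR; the deposited values are these counts, whole numbers without normalization, beside a gene length. Strand use in counting is not given in the sources used here. Of 24454 identifiers, 24374 matched RefSeq gene names of GRCm38.p6.

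The main test used edgeR 4.0.16 (R 4.3.3), with TMM, filterByExpr over the 4 groups, glmQLFit and glmQLFTest on all 16 libraries with 1 mean per group, Benjamini-Hochberg adjustment over 15487 genes and a threshold of 0.05. Log2 fold changes and SEs are those of the fit, 95% intervals are 1.96 SEs either way, and means and SDs are those of normalized CPM or RPKM. Single values were compared by exact permutation tests. The procedure was tested on simulated data. Alternatives were DESeq2 1.42.0, limma 3.58.1 with voom, other scalings and filters, robust dispersion, the compared groups alone, an epidermal covariate (log2 of the summed CPM + 0.1) and leaving out each mouse. Coding sequences and exons are from GENCODE M21 (GRCm38), read with Biopython 1.88.

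The members, the lists and the tests were chosen with earlier results of these data known. A test of the difference between the AICAR effects had been planned for the family too, but is not given, because that difference is also the difference between the genotype values that chose it. The text names all 4 family members, the genes called in each list and up to 4 others with high levels, and the 5 genes most like Cacna2d4. Of the overlapping and nearest genes it names those that have counts, of which Cacna2d1 had none. No library was a copy of another: pairs within a group gave a chi-square over its degrees of freedom of 25.1 to 141. That they are separate mice was taken from the labels, which give no batch, litter or day. The coefficient of variation given for counting covers counting error only.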

Additional observations from a re-analysis of the deposited data

Results flagged for a closer look

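Among 92 sets of 5 HSALR mice examined (the family, its shares, the listed genes, the neighbours and the genes most like Cacna2d4), 5 held a mouse far from the other 4, where chance gives about 1 in 20, or 4.6. Mice S458 and S460 account for all 5. Cacna2d1 was at 354 CPM in vehicle-treated HSALR mouse S458, as compared to 520 to 573 CPM in the others, and Shisal1 was at 5.97 CPM in the same mouse, as compared to 7.72 to 8.14 CPM. In AICAR-treated HSALR mouse S460, Cacna2d3 was at 0.583 CPM (others 0.928 to 0.976 CPM) with a share of 0.215% of family RPKM (others 0.334% to 0.379%), and Rrad was at 26.1 CPM (others 6.55 to 8.32 CPM).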

How the results depend on the processing

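No paired analysis was possible because the groups share no mouse number. The genotype difference of Cacna2d4 kept its direction in every alternative run. The cause of the changes below was not tested. The difference between AICAR effects needs all 4 groups, so it has no fit of the compared groups alone. Scaling to Tbp gave genotype differences after vehicle of -0.068 (Cacna2d1), 0.13 (Cacna2d2) and 3.34 (Cacna2d4), and turned Cacna2d1 to -0.064 for AICAR in HSALR mice, 0.13 for AICAR in controls and -0.20 for the difference between them. It also shifted the median of all genes by 0.279 between genotypes after vehicle, -0.132 and 0.192 with AICAR in HSALR and control mice, and -0.321 for their difference, so that 95.4% of calls between genotypes after vehicle were higher (57.2% with TMM), 25.2% with AICAR in HSALR mice (51.3%), 94.3% in controls (63.8%) and 1.57% for the difference (29.9%). With library size alone these shares were 30.9% in HSALR mice and 50.7% in controls, and Cacna2d1 and Cacna2d2 were at -0.026 and -0.60 with AICAR in HSALR mice. The epidermal covariate gave -0.021 for Cacna2d1 and 0.011 for Cacna2d3 there, and 0.013 for Cacna2d2 in the difference. DESeq2 gave Cacna2d4 -0.74 in controls, now called, and 0.98 in the difference, which is given without a test. Genes called in HSALR against control after AICAR numbered 1396 with Tbp scaling (3379 with the main test, 3 of the listed genes against 6), with AICAR in HSALR mice 2108 with the epidermal covariate (4121, and 7 listed against 11), with AICAR in controls 1164 with the compared groups alone (2039, and 2 listed against 4, or 8 with DESeq2), and for the difference 536 with DESeq2, 381 with Tbp scaling (1 listed) and 57 with the covariate (107). With 1 mouse left out, genes called ranged from 2214 to 3790 (genotypes after AICAR), 1143 to 1726 (AICAR in controls) and 15 to 371 (the difference, highest without AICAR-treated HSALR mouse S460 and lowest without AICAR-treated control S448). Listed genes called ranged from 4 to 9 (genotypes after vehicle, 4 without control S446), 3 to 7 (genotypes after AICAR, 3 without control S447 or S448), 4 to 7 (AICAR in controls, 7 without S447) and 0 to 1 (the difference). AICAR effects in HSALR mice ranged from -0.054 to 0.097 for Cacna2d1 (negative without S458) and -0.64 to -0.39 for Cacna2d2. There they ranged from -0.43 to -0.20 for Cacna2d3 and from 0.13 to 0.33 for Cacna2d4, which was at 0.10 with Tbp scaling. In controls they ranged from -0.97 to -0.56 for Cacna2d3 and -1.08 to -0.51 for Cacna2d4. The difference ranged from -0.22 to 0.050 for Cacna2d2 (positive without S446, S453 or S455). With 1 mouse left out, the AICAR differences of shares in HSALR mice ranged from -0.350 to 0.0502 points for Cacna2d1 and -0.0838 to -0.0486 points for Cacna2d2 (exact permutation p up to 0.0635). For Cacna2d3 they ranged from -0.140 to -0.0771 points. The exact permutation p for Cacna2d3 was then 0.00794 to 0.159, beside 0.0794 with all HSALR mice. Reads per library limit Cacna2d2 and Cacna2d3, at 27 to 138 reads, and Cacna2d4 in controls, at 36 to 100.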
